A study of Mus musculus with 6 samples.

Results

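The 10 genes described here encode receptors, ligands, a modifying enzyme and nuclear targets of the Notch pathway in heads of mouse embryos at embryonic day (E) 9.0. They were taken by symbol from the table of read counts per gene, and all 10 of the 10 symbols were found among its 24421 rows. They are the receptors *Notch1*, *Notch2* and *Notch3*, the ligands *Dll1*, *Dll3* and *Jag1*, the Fringe gene *Lfng*, and the targets *Hes1*, *Hes5* and *Hey1*. All 10 were also among the 15584 genes with enough reads to be tested, with between 79 reads (*Dll3*) and 12106 reads (*Jag1*) in a library.

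Notch receptors are cleaved when a ligand on a neighbouring cell pulls on them, and the freed intracellular part enters the nucleus, where it binds RBPJ and a Mastermind protein and turns on target genes. In the early neural tube, a cell that starts to become a neuron makes more Delta ligand under proneural factors, and its neighbours respond with Hes proteins that repress proneural genes and keep them as progenitors. Jagged ligands, Fringe enzymes and Hey proteins are also known for their parts in sensory placodes, boundaries and vessels.

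The study compared 3 libraries of wild-type heads (*Snrpb* +/+, WT) with 3 libraries of *Snrpb ncc+/-* heads (Het). Each library was made from the heads of 2 somite-matched embryos from different litters, on a mixed CD1 and C57BL/6 background, so the spread between libraries is a spread between pools of embryos. *Snrpb* encodes a core protein of the spliceosome. In the mutants, Wnt1-Cre2 removes a loxP-flanked part of 1 copy in neural crest cells and in the neural tube, whereas cells in which Cre does not act stay wild type. Which part of the neural tube cells had lost it in these pools is not given in the labels. Whether the WT embryos carried the Cre transgene or a loxP allele is not given in the labels. The libraries are of whole heads, so fewer cells of a type and less RNA per cell cannot be told apart.

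Between 36378803 and 74909774 reads were counted per library, and levels are given on the counts-per-million (CPM) scale. *Snrpb* itself stood at 427 ± 12.2 CPM in WT and 426 ± 12.5 in Het (SD, n = 3 each), a log2 fold change of -0.0036 with an edgeR adjusted *P* of 0.990. Reads of the undeleted exons, of the intact allele and of unrecombined cells all enter this count, so it is not a check of the deletion. Of the 11 posterior Hox genes, 8 were below 0.1 CPM in every library, while markers of head neural tissue summed to 245 to 318 CPM and markers of cranial neural crest to 325 to 394 CPM. WT replicate 1 stood farthest from the rest, with a mean Euclidean distance of 53.0 (log2 CPM of all tested genes) to the other libraries, against 41.8 to 48.0 for the others. It held the highest value of 24.7% and the lowest of 24.6% of all tested genes. Among the 10 Notch pathway genes, it held the highest value of 7 and the lowest of 2. For the 10 genes, and for some of the other values, values without it are given beside the results.

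No Notch pathway gene passed the test between the genotypes. With edgeR, 0 of the 10 genes had an adjusted *P* under 0.05, where 1 of all 15584 tested genes did (0.00642%). With DESeq2, 0 of the 10 did too, where 84 of 12908 genes did (0.651%). At an unadjusted edgeR *P* under 0.05, *Jag1* was higher and *Lfng* lower in mutants, so 2 of 10 genes crossed this line where 8.43% of all tested genes did. With DESeq2, *Dll3*, *Jag1* and *Lfng* had an unadjusted *P* under 0.05 (3 of 10, beside 5.19% of 21082 genes). Those 21082 genes include many with too few reads for the edgeR test, so this share is not like the edgeR one. The edgeR count depended on single libraries. It was 7 without WT replicate 2, where 11.4% of all tested genes crossed the line. It was 1 without WT replicate 1 (10% of all tested genes), WT replicate 3 (6.65%) or Het replicate 2 (5.06%), and 0 without Het replicate 1 (7.12%) or Het replicate 3 (6.68%). The 3 WT values and the 3 Het values did not overlap for 3 of the 10 genes (30.0%), which were *Jag1*, *Lfng* and *Hes5*, where this was so for 15.2% of all tested genes. In the fitted values, 8 of 10 genes were lower in mutants, with a median log2 fold change of -0.15, beside 0.0004 over all tested genes. Of all tested genes, 50.2% were higher in mutants. Without WT replicate 1, the median of the 10 genes was -0.04 and 7 of 10 were lower.

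**Figure D1:**
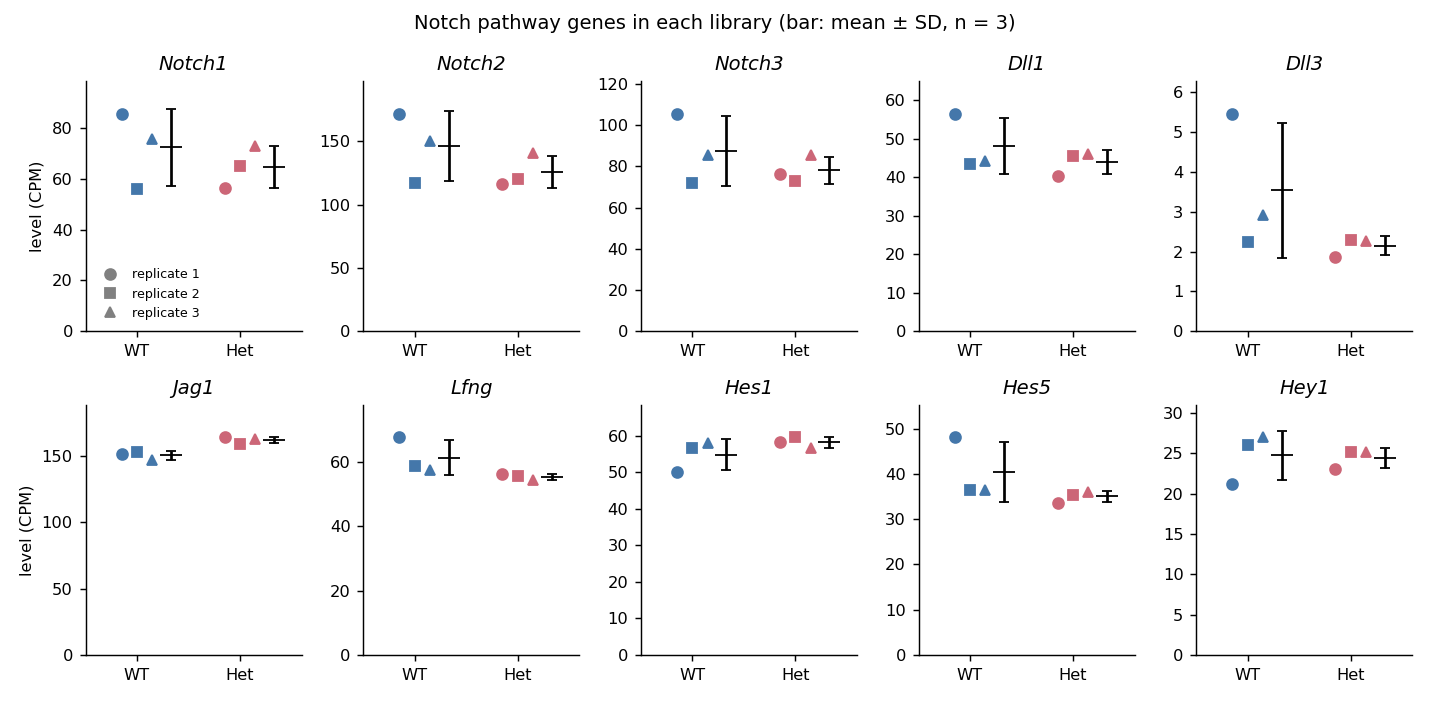
Level in CPM (vertical axes, each from 0) of the 10 Notch pathway genes in the 3 WT and 3 Het libraries, with a marker shape for each replicate number and the mean ± SD (n = 3) in black. WT replicate 1 is the highest point in 7 panels, and the groups are apart for *Jag1*, *Lfng* and *Hes5*.

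To compare levels between genes, reads were divided by the length of the merged exons (RPKM, the CPM per kilobase of exon). The targets *Hes1* (mean of the 6 libraries 27.7 RPKM) and *Hes5* (27.7 RPKM) stood at the top with the ligand *Jag1* (26.8 RPKM) and the Fringe gene *Lfng* (23.3 RPKM). The ranges of these 4 genes over libraries overlapped from one to the next. *Lfng* was above *Notch2* in 6 of 6 libraries, with no overlap of their ranges. *Notch2* followed at 12.6 RPKM, *Dll1* at 10.9 RPKM and *Notch3* at 10.3 RPKM, again with overlapping ranges between neighbours. *Hey1* (7.54 RPKM), *Notch1* (4.82 RPKM) and *Dll3* (0.997 RPKM) were each below the gene before them in every library, with no overlap of ranges. The order of the means was the same when the longest transcript was used in place of the merged exons. With that length *Hey1* (10.2 RPKM) stood close to *Notch3* (10.3 RPKM), so the gap between them depends on the length used. The remaining receptor and ligands lay low: the receptor *Notch4*, known from endothelium, had 1.17 RPKM, the endothelial ligand *Dll4* 1.34 RPKM and the ligand *Jag2* 1.46 RPKM.

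**Figure D2:**
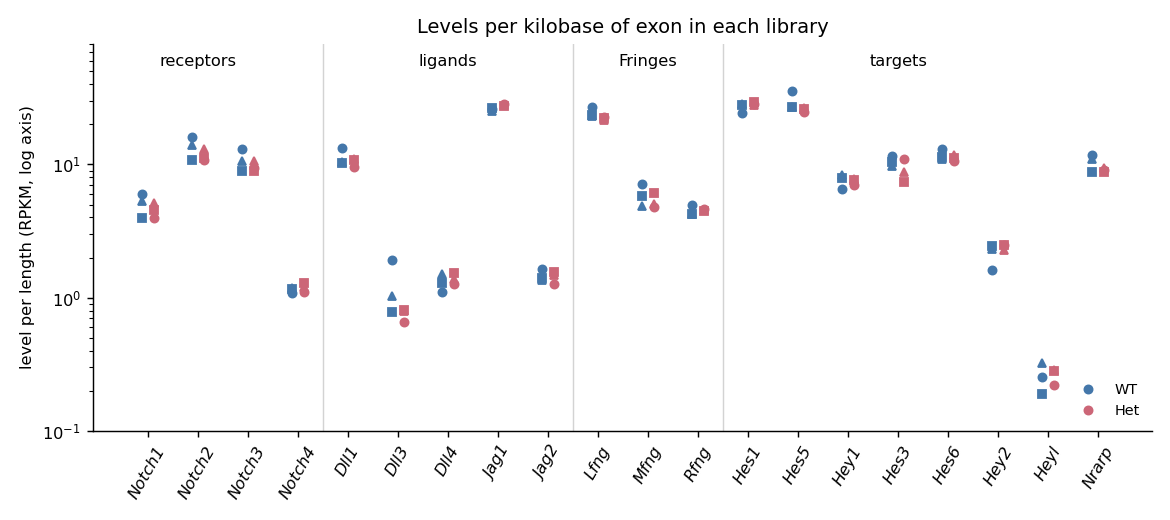
Level per length (RPKM, log axis) of receptors, ligands, Fringe genes and target genes in each WT (blue) and Het (red) library. *Hes1*, *Hes5*, *Jag1* and *Lfng* lie between 21.7 and 35.3 RPKM in every library, and *Dll3* lies between 0.656 and 1.92 RPKM.

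The 3 receptor genes were lower on average in mutants, by less than the spread between libraries. *Notch1*, a receptor broadly used in neural progenitors, lies at chr2:26457903-26516663 on the minus strand (mm10). Its levels were 85.7, 56.0 and 75.8 CPM in WT replicates 1, 2 and 3 and 56.4, 64.9 and 72.8 CPM in Het replicates 1, 2 and 3. The groups overlapped fully, since the highest and the lowest value were both WT. The log2 fold change of Het against WT was -0.16 (s.e. 0.177, 95% interval -0.60 to 0.28, adjusted *P*=0.851).

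*Notch2*, the receptor with the highest level per length of the 3, lies at chr3:98013527-98150361 on the plus strand. It had 172, 117 and 151 CPM in WT and 116, 121 and 140 CPM in Het. WT replicate 1 was highest, and WT replicate 2 lay among the Het values. The log2 fold change was -0.22 (s.e. 0.154, 95% interval -0.60 to 0.16, adjusted *P*=0.741). *Notch3*, which is known from neural progenitors and from mural cells of vessels, lies at chr17:32120820-32166852 on the minus strand. Its values were 106, 71.9 and 85.6 CPM in WT and 76.4, 72.7 and 85.5 CPM in Het, so the groups overlapped, with WT replicate 2 the lowest library of all. The fitted log2 fold change was -0.16 (s.e. 0.145, 95% interval -0.52 to 0.19, adjusted *P*=0.801). Without WT replicate 1, the 3 receptors had log2 fold changes of -0.02, -0.09 and -0.01, in the order named.

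The receptor genes were high and low in the same libraries as other long transcripts. Their longest transcripts measured 9488 bp (*Notch1*), 10500 bp (*Notch2*) and 8016 bp (*Notch3*). Over the 866 tested genes with a transcript above 8 kb, the median log2 level against the mean of the 6 libraries was 0.10, -0.07 and 0.06 in WT and -0.11, -0.02 and 0.06 in Het. The log2 level of *Notch2* against its mean was 0.34, -0.22 and 0.15 in WT and -0.23, -0.175 and 0.04 in Het. In both, WT replicates 1 and 3 and Het replicate 3 were high, and WT replicate 2 and Het replicate 1 were low. The long genes had a median log2 fold change of -0.05. In a fit with an offset for GC content and transcript length, chosen after seeing the data, the standard error of *Notch2* was 0.0705 and its log2 fold change -0.18 (edgeR unadjusted *P*=0.0315, adjusted *P*=0.419). *Notch1* (-0.13) and *Notch3* (-0.13) also stayed below 0 in that fit. The part of transcript length in the receptor values was not tested further.

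**Figure D3:**
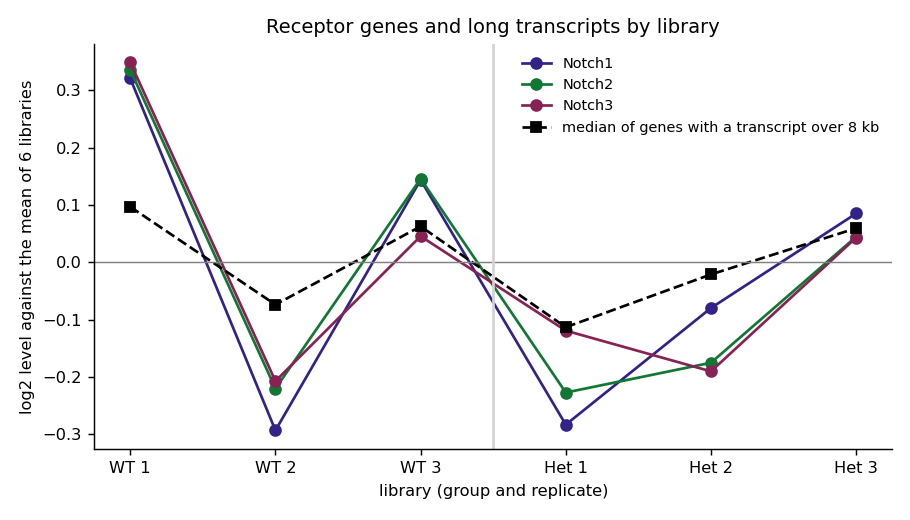
Log2 level of the 3 receptor genes and the median of the 866 genes with a transcript over 8 kb (dashed), each against its mean over the 6 libraries, by library. WT replicate 2 and Het replicate 1 are below 0 for all 4 lines, and WT replicates 1 and 3 and Het replicate 3 are above 0.

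A share within a library does not depend on the scaling between libraries. Of the reads per kilobase of the 3 receptors, *Notch1* took 17.2 ± 0.599% in WT and 17.5 ± 1.06% in Het (SD, n = 3 each, exact permutation *P*=0.8). *Notch3* took 36.8 ± 1.16% and 37.4 ± 1.43% (n = 3 each, exact permutation *P*=0.6). *Notch2* took 45.5%, 45.8% and 46.7% in the WT libraries and 44.6%, 45.2% and 45.4% in the Het libraries, so that all 3 Het values were below all 3 WT values. Its mean share was 0.976 percentage points lower in mutants (exact permutation *P*=0.1). This is the smallest *P* that 3 against 3 libraries allow, so these tests cannot pass 0.05, and adjusted over the 6 shares computed it was 0.3.

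Of the ligands, *Dll1* and *Dll3* were lower and *Jag1* higher in the fitted values. *Dll1*, the Delta ligand of committing neural cells, lies at chr17:15367354-15376872 on the minus strand. It had 56.5, 43.4 and 44.3 CPM in WT and 40.2, 45.6 and 46.0 CPM in Het. WT replicate 1 stood above the other 5 libraries, which mixed. The fit gave a log2 fold change of -0.13 (s.e. 0.108, 95% interval -0.38 to 0.13, adjusted *P*=0.790), and without WT replicate 1 it was 0.0017.

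*Dll3*, a Delta-like protein that acts inside the cell and does not activate receptors on its neighbours, lies at chr7:28293553-28302238 on the minus strand. It was the gene with the fewest reads and the lowest log2 fold change of the 10. Its levels were 5.47, 2.23 and 2.92 CPM in WT and 1.87, 2.29 and 2.27 CPM in Het. WT replicate 1 was far above the others, and WT replicate 2 lay within the Het values. The log2 fold change was -0.70 (s.e. 0.321, 95% interval -1.45 to 0.06), with an unadjusted *P* of 0.0651 and an adjusted *P* of 0.620 by edgeR. DESeq2 gave *Dll3* an unadjusted *P* of 0.0173 and an adjusted *P* of 0.425. Without WT replicate 1, its log2 fold change was -0.25 (95% interval -0.65 to 0.16). *Dll3* is also known from the presomitic mesoderm. Markers of paraxial mesoderm, of which 7 of 10 had enough reads to be tested, were summed. The sums were 4.78, 15.6 and 9.27 CPM in WT and 7.34, 7.56 and 10.8 CPM in Het. WT replicate 1 was the highest library for *Dll3* and the lowest for this sum. Paraxial mesoderm includes the somites, and *Msgn1*, *Mesp2* and *Ripply2* had too few reads to be tested. The sum is thus not a measure of presomitic mesoderm. The part of mesoderm content in the *Dll3* values was not tested.

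*Jag1*, the Jagged ligand of sensory placodes and vessels, had the smallest standard error and the smallest unadjusted edgeR *P* of the 10. It lies at chr2:137081456-137116644 on the minus strand. Its levels were 152, 153 and 147 CPM in WT and 164, 159 and 163 CPM in Het. All 3 Het libraries were above all 3 WT libraries. Het against WT, its log2 fold change was 0.11 (s.e. 0.0373, 95% interval 0.02 to 0.19), with an unadjusted *P* of 0.0192 and an adjusted *P* of 0.484 by edgeR. Without WT replicate 1, it was 0.11 again (edgeR unadjusted *P*=0.0264). Endothelial markers summed to 293, 331 and 354 CPM in WT and 288, 333 and 323 CPM in Het, and these sums overlapped. The part of vessel content in the *Jag1* values was not tested.

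Among reads per kilobase of the 3 ligands, *Jag1* took 67.3 ± 3.86% in WT and 71.4 ± 1.77% in Het (SD, n = 3 each, exact permutation *P*=0.2). *Dll1* took 29.5 ± 2.55% and 26.7 ± 1.58% (n = 3 each, exact permutation *P*=0.2). The share of *Dll3* was 4.64%, 2.10% and 2.79% in WT and 1.71%, 2.06% and 2.01% in Het. The Het values were all below the WT values, with a gap of less than 0.1 percentage points between WT replicate 2 and Het replicate 2 (exact permutation *P*=0.1, adjusted *P*=0.3). Het minus WT, the shares differed by 4.05 (*Jag1*), -2.80 (*Dll1*) and -1.25 (*Dll3*) percentage points, and without WT replicate 1 by 1.88, -1.36 and -0.515.

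*Lfng*, the Fringe enzyme that adds sugar to Notch receptors and shifts their response between Delta and Jagged ligands, lies at chr5:140607320-140615545 on the plus strand. Its levels were 67.7, 58.9 and 57.6 CPM in WT and 56.4, 55.5 and 54.3 CPM in Het. All 3 Het libraries were below all 3 WT libraries, with WT replicate 1 the highest. This gave a log2 fold change of -0.15 (s.e. 0.0642, 95% interval -0.29 to -0.0021), with an unadjusted *P* of 0.0474 and an adjusted *P* of 0.581 by edgeR. Without WT replicate 1, it was -0.08 (95% interval -0.18 to 0.03).

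The fitted values of the 3 targets lay on both sides of 0. *Hes1*, a repressor of proneural genes that many tissues of the head use, lies at chr16:30064384-30067796 on the plus strand. It had 49.9, 56.6 and 57.8 CPM in WT and 58.3, 59.5 and 56.7 CPM in Het. WT replicate 1 was the lowest library, and Het replicate 3 lay between the other WT values. The log2 fold change was 0.09 (s.e. 0.0611, 95% interval -0.05 to 0.22, adjusted *P*=0.730), and without WT replicate 1 it was 0.02.

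*Hes5*, a Hes repressor largely kept to neural progenitors and strongly dependent on Notch, lies at chr4:154960923-154962371 on the plus strand. Its values were 48.1, 36.5 and 36.5 CPM in WT and 33.7, 35.4 and 36.1 CPM in Het. The Het libraries were all below the WT libraries, but Het replicate 3 lay close to WT replicates 2 and 3. The fit gave a log2 fold change of -0.20 (s.e. 0.107, 95% interval -0.45 to 0.05, adjusted *P*=0.659), and without WT replicate 1 it was -0.06. *Hey1*, a related repressor known from boundaries and vessels, lies at chr3:8663359-8667256 on the minus strand. Its levels were 21.2, 26.0 and 27.0 CPM in WT and 23.1, 25.1 and 25.2 CPM in Het. WT libraries were both the lowest and the highest, so the groups overlapped. In the edgeR fit the log2 fold change was -0.02 (s.e. 0.0901, 95% interval -0.22 to 0.19, adjusted *P*=0.974), and without WT replicate 1 it was -0.12 (95% interval -0.26 to 0.02).

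**Figure D4:**
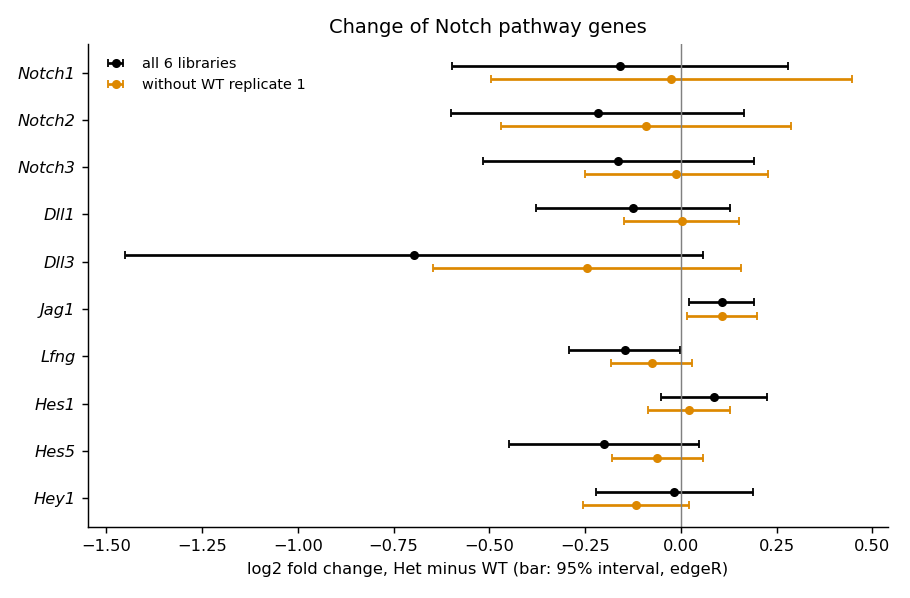
Log2 fold change of Het against WT (horizontal axis) with its 95% interval for each of the 10 genes, from edgeR fits with all 6 libraries (black) and without WT replicate 1 (orange). Without that library, *Dll3* moves from -0.70 to -0.25, *Dll1* from -0.13 to 0.0017, and *Jag1* stays at 0.11.

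The bases before the start of transcription are shown for *Hes5* and *Lfng*, because these 2 were the only ones among the 8 Notch pathway genes with a promoter window whose bases held the motif searched, and because both had all Het libraries below all WT libraries. The motif was TGGGAA, the core that RBPJ binds, searched on either strand in the 250 bases before the RefSeq start (GRCm38.p6). For *Lfng*, the bases are printed only up to the gene start given above, which lies earlier. The windows of *Notch1* (chr2:26503823-26504072) and *Dll3* (chr7:28301786-28302035) lie inside the gene spans given above, as does a window of *Dll1* (chr17:15375824-15376073). That of *Jag1* (chr2:137116521-137116770) lies partly inside its span. For these genes the bases before the outermost annotated start were thus not all searched. *Hes1* and *Hey1* were not searched. Capitals mark the motif, which reads TTCCCA where it lies on the other strand.
*Hes5*, chr4:154960673-154960922, plus strand: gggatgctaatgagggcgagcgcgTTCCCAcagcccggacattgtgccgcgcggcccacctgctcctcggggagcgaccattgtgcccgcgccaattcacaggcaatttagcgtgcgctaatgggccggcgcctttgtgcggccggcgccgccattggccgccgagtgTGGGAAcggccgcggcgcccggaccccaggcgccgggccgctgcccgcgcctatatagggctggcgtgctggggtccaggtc
*Lfng*, chr5:140607091-140607319, plus strand: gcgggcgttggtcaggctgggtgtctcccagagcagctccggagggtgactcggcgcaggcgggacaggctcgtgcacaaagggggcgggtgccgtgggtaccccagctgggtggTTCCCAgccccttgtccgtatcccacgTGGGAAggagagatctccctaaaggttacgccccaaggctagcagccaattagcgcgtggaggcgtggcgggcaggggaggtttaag
In *Hes5*, the motifs began 226 and 82 bases before the RefSeq start, and in *Lfng* 135 and 108 bases before it. The first of each was on the minus strand and the second on the plus strand. The printed *Lfng* sequence holds 229 bases and ends before the RefSeq start, so its motifs lie closer to its end than these distances. Of 32851 promoter windows of 250 bases, 21.6% held the motif at least once and 2.77% at least 2 times. A match of these letters is a description and not a measured binding site.

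The rest of the pathway was described with a list of 59 genes, of which 57 were tested. None passed an adjusted *P* of 0.05 with edgeR or DESeq2. At an unadjusted edgeR *P* under 0.05, 1 gene was higher and 3 were lower, 4 of 57 where 8.43% of all tested genes crossed this line. The count was 9 without WT replicate 2 (11.4% of all tested genes), 2 without WT replicate 3 (6.65%) or Het replicate 1 (7.12%), and 1 without Het replicate 2 (5.06%). In the fitted values, where 50.2% of all tested genes were higher, 24 of the 57 were higher and 33 lower. Their median log2 fold change was -0.02, and without WT replicate 1 it was 0.0002. The groups did not overlap for 10.5% of them, below the 15.2% of all tested genes.

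Of the genes that act on the ligand side, *Mib1*, the ubiquitin ligase that lets Delta and Jagged be taken up and pull on receptors, had 180, 170 and 182 CPM in WT and 147, 161 and 173 CPM in Het. Only Het replicate 3 lay within the WT range (log2 fold change -0.14, s.e. 0.0598, edgeR unadjusted *P*=0.0398, adjusted *P*=0.554). Of the genes for receptor cleavage, *Adam10*, the protease of the cut outside the membrane, had a log2 fold change of 0.0022 (s.e. 0.0801).

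In the nucleus, *Rbpj*, the DNA-binding protein of the pathway, had a log2 fold change of 0.11 (s.e. 0.0850), and its co-activator *Maml1* had -0.04 (s.e. 0.0758). *Tle1* and *Tle2* encode Groucho co-repressors through which Hes proteins act. *Tle1* had 98.6, 97.8 and 98.7 CPM in WT and 91.2, 92.3 and 92.2 CPM in Het (log2 fold change -0.10, edgeR unadjusted *P*=0.0251, adjusted *P*=0.508). *Tle2* had 2.58, 3.00 and 2.92 CPM in WT and 3.84, 3.75 and 3.60 CPM in Het (log2 fold change 0.39, edgeR unadjusted *P*=0.0107, adjusted *P*=0.437). The groups did not overlap for either of them, and they lay in opposite directions. Among other targets, *Nrarp*, a feedback inhibitor that Notch turns on, had a log2 fold change of -0.21 (s.e. 0.10, edgeR adjusted *P*=0.623), or -0.12 without WT replicate 1. *Hes6*, a Hes gene of committing neurons, had -0.07 (s.e. 0.0769), and *Heyl* had 0.08 (s.e. 0.226). The remaining receptor and ligands, *Notch4* (0.08, s.e. 0.0905), *Dll4* (0.12, s.e. 0.137) and *Jag2* (-0.03, s.e. 0.111), had log2 fold changes smaller than their standard errors. Without WT replicate 1, *Maml1* (0.02) and *Jag2* (0.05) changed sign. In that fit *Rbpj* had 0.04, *Hes6* -0.0030, *Heyl* 0.09, *Notch4* 0.04 and *Dll4* 0.015.

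Notch holds back neurogenesis, so genes of that process were set beside the 10. Of 36 listed genes, 35 were tested, and none passed an adjusted *P* of 0.05 with edgeR or DESeq2. In the fitted values 32 of 35 were lower in mutants, with a median log2 fold change of -0.21. Of all tested genes, 50.2% were higher in mutants, with a median of 0.0004. Among the 32 lower genes, 4 had an unadjusted edgeR *P* under 0.05. Over all tested genes 8.43% did. The count was 10 with DESeq2 (5.19% of 21082 genes, which include many with too few reads for the edgeR test). It was 17 without WT replicate 2 (11.4%), and 2 without WT replicate 1 (10%) or Het replicate 2 (5.06%). WT replicate 1 held the highest value of 28 of the 35 genes. Without it, 30 of 35 were lower, the median was -0.09, and 2 had an unadjusted *P* under 0.05. The groups did not overlap for 14.3% of the list, beside 15.2% of all tested genes.

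The proneural genes, which turn progenitors into neurons and raise *Dll1*, were high in WT replicate 1. Summed, they had 27.8, 12.7 and 15.5 CPM in WT and 11.4, 12.6 and 13.3 CPM in Het. Of the 10 Notch pathway genes, *Dll1*, *Dll3*, *Lfng*, *Hes5* and the 3 receptors were also highest in that library, while *Hes1* and *Hey1* were lowest there. The log2 fold changes of *Neurog1* (-0.42, s.e. 0.211), *Neurog2* (-0.21, s.e. 0.174), *Neurod1* (-0.71, s.e. 0.397) and *Neurod4* (-1.09, s.e. 0.507) were below 0, and their groups overlapped. They were -0.14, -0.03, -0.23 and -0.61 without WT replicate 1, in the same order.

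Genes of committed precursors and early neurons had the smallest *P* of the list. *Insm1*, a zinc finger repressor of newly committed precursors, had 5.16, 2.78 and 3.49 CPM in WT and 1.99, 1.71 and 2.38 CPM in Het. All its Het values were below its WT values (log2 fold change -0.90, s.e. 0.239, edgeR unadjusted *P*=0.00500, adjusted *P*=0.433), and the DESeq2 adjusted *P* was 0.0528. Without WT replicate 1, its log2 fold change was -0.62 (95% interval -1.05 to -0.19). *Myt1*, a zinc finger factor of neuronal commitment, had 2.66, 0.954 and 1.76 CPM in WT and 0.781, 0.842 and 0.797 CPM in Het (log2 fold change -1.12, s.e. 0.344, edgeR unadjusted *P*=0.0114, adjusted *P*=0.439). *Elavl3*, an RNA-binding protein of young neurons, had 7.91, 3.68 and 5.05 CPM in WT and 2.75, 3.60 and 3.65 CPM in Het (log2 fold change -0.71, s.e. 0.278, edgeR unadjusted *P*=0.0367, adjusted *P*=0.550). The groups did not overlap for *Myt1* or *Elavl3*, though WT replicate 2 stood close to the Het values in both. Leaving out WT replicate 1, their log2 fold changes were -0.71 (*Myt1*, edgeR unadjusted *P*=0.0309) and -0.37 (*Elavl3*, edgeR unadjusted *P*=0.0762). *Tubb3*, a neuronal tubulin, had a log2 fold change of -0.27 (s.e. 0.135), or -0.12 without that library, and *Sox2*, which marks neural progenitors, had -0.10 (s.e. 0.0519).

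**Figure D5:**
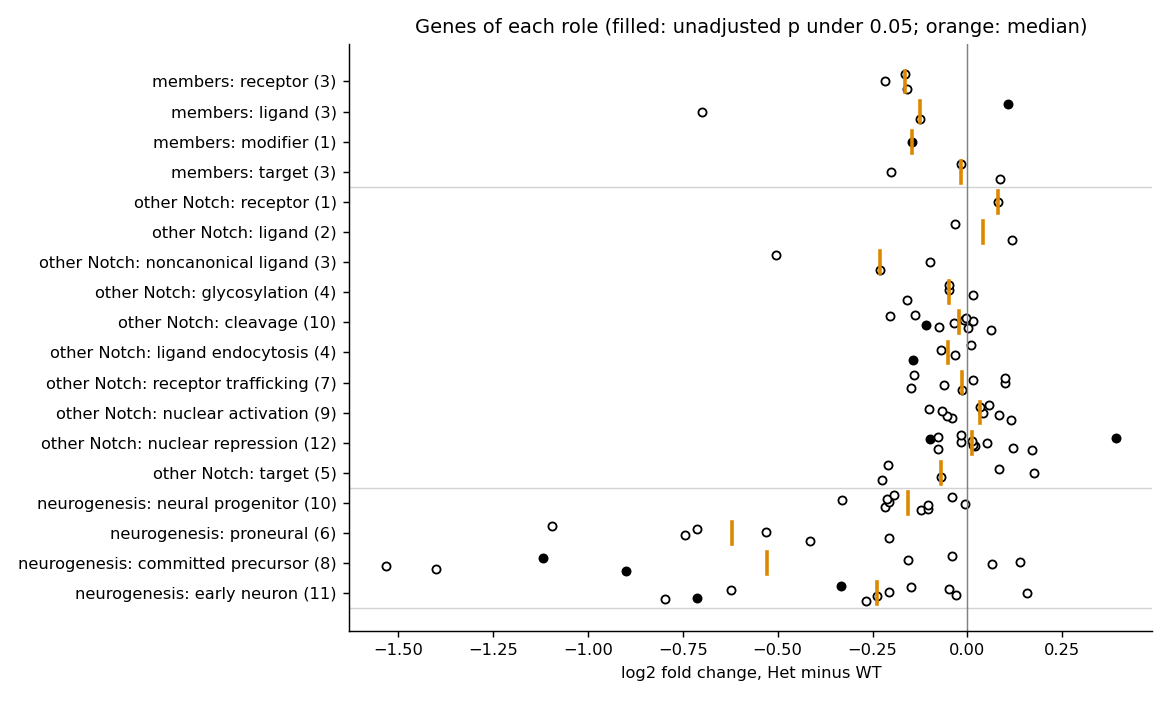
Log2 fold change of Het against WT (horizontal axis) of each tested gene, by role, for the 10 Notch pathway genes, the other genes of the pathway and the neurogenesis genes, with the number of genes in brackets. Filled points have an unadjusted edgeR *P* under 0.05 and orange bars are medians, which lie lowest for the proneural (-0.62) and committed precursor (-0.53) genes. These medians were -0.18 and -0.35 without WT replicate 1, a fit that is not drawn.

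Reads of Y-linked genes also differed between the pools. The 4 Y-linked genes summed to 98.8, 120 and 62.8 CPM in WT and 173, 228 and 111 CPM in Het, with Het replicate 3 between the WT values. With their mean log2 CPM as a covariate, 0 of the 10 Notch pathway genes had an unadjusted edgeR *P* under 0.05. The log2 fold changes of the receptors were then 0.04, -0.02 and -0.02. Those of the ligands were -0.14 (*Dll1*), -0.70 (*Dll3*) and 0.09 (*Jag1*), and that of *Lfng* was -0.20. The targets had 0.09 (*Hes1*), -0.23 (*Hes5*) and 0.04 (*Hey1*). The standard error of *Jag1* rose from 0.0373 to 0.0603 with the covariate, and that of *Lfng* from 0.0642 to 0.0964. In that fit 3.29% of all tested genes had an unadjusted *P* under 0.05, against 8.43% without the covariate. The part of embryo sex in the members' values was not tested further. Neural markers were also high in WT replicate 1. Head neural markers summed to 318, 246 and 253 CPM in WT and 276, 251 and 245 CPM in Het, and neural progenitor genes to 942, 785 and 824 CPM in WT and 785, 772 and 777 CPM in Het. Cranial neural crest markers summed to 325, 337 and 394 CPM in WT and 349, 336 and 369 CPM in Het, so WT replicate 1 was the lowest there. The part of tissue content in the members' values was not tested.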

How the data were processed

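Heads of E9.0 embryos were dissected and their RNA depleted of ribosomal RNA, made into stranded libraries and sequenced with paired reads. Reads were trimmed and aligned to mm10 with STAR by the authors, who deposited raw counts per gene symbol, without normalization. The paper names HTSeq with Gencode M2 as the counter, and the submitters' processing notes list Trim Galore, STAR, MultiQC and featureCounts. The strand setting is not given in the sources used here. Genes annotated on the opposite strand overlap exons of *Notch1*, *Notch3*, *Dll1* and *Hes5*, and a same-strand gene those of *Notch2*, so reads may be shared.

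Groups follow the genotype labels, and all 6 columns were used. The table was fitted whole with edgeR (version 4.0.16, R version 4.3.3), using TMM factors, filterByExpr, robust quasi-likelihood fits and two-sided tests, with Benjamini-Hochberg adjustment over 15584 genes and a threshold of 0.05. The standard error is the log2 fold change divided by the square root of F. The common biological coefficient of variation was 0.0871, so for genes with many reads the spread between libraries, not depth, set the precision. For genes with few reads, such as *Dll3* with 79 reads in its lowest library, depth limited it too. Between any pair of libraries, chi-square over its degrees of freedom was 10.2 to 28.6, so none was a duplicate. DESeq2 (version 1.42.0) was an alternative. Lengths, coordinates and overlaps come from Gencode M21. The scripts were tested on simulated data.

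The members and gene lists were chosen with earlier results of these data known. The genes named are the members, *Snrpb*, a fixed set of core pathway and neurogenesis genes, and the 3 genes per direction with the smallest unadjusted edgeR P under 0.05 in each list, except some that are not reported here. The alternatives were DESeq2, other scaling, other filters, a replicate block, a Y-linked covariate, each library left out in turn, other lengths for the shares, and, chosen after seeing the data, an offset for GC content and transcript length. The count of members at an unadjusted P under 0.05 was also added after seeing the data.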

Additional observations from a re-analysis of the deposited data

How the results depend on the processing

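No Notch pathway gene was called under any of the 14 alternatives (0 to 0 with 1 library left out), with adjusted P values between 0.305 and 0.999. The number of the 10 genes with an unadjusted P under 0.05 was 2, and became 1 with library size alone, 1 with a stricter filter (10 counts or more in each library), 0 with the Y-linked covariate, and 3 with DESeq2 or with the offset for GC content and transcript length. With 1 library left out it lay between 0 and 7, the latter without WT replicate 2, where 11.4% of all tested genes had such a P. For the other pathway genes the count of 4 became 0 with the Y-linked covariate and 6 with the offset, and 1 to 9 with 1 library left out. For the neurogenesis genes the count of 4 became 10 with DESeq2, 1 with the Y-linked covariate and 9 with the offset, and 2 to 17 with 1 library left out, the latter without WT replicate 2.

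Of 80 log2 fold changes of the members under alternatives with all libraries, 78 kept their direction. The exceptions, both with the Y-linked covariate, were *Notch1* at 0.0447 and *Hey1* at 0.0416. Of 60 with 1 library left out, 56 kept it. *Dll1* ranged from -0.20 to 0.00174, the latter without WT replicate 1, and *Hey1* from -0.12 to 0.0457. The receptor share of *Notch1* ranged from -0.12 to 0.91 and that of *Notch3* from -0.17 to 1.17 percentage points, Het minus WT. The causes were not tested.

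Whether the replicate numbers pair the pools could not be settled. Deviations of same-numbered libraries correlated at 0.169, 0.0317 and 0.36. The libraries numbered 1 and 3 correlated best with their own number. WT replicate 2 correlated at 0.0386 with Het replicate 1, and Het replicate 2 at 0.0875 with WT replicate 1. With the replicate block, 0 members were called and 2 had an unadjusted P under 0.05, against 6 of the other pathway genes, 6 of the neurogenesis genes and 8.53% of all tested genes.

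With 3 pools a group, the 95% interval of *Dll3* spans log2 fold changes from -1.45 to 0.06, and those of the receptors reach down to -0.60.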
